A study of Sus scrofa with 12 samples.

Results

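A set of 10 genes of the matrix metalloproteinase (MMP) system was followed in cultured arterial endothelial cells (ECs) under 3 levels of laminar shear stress: the proteases MMP1, MMP2, MMP14, MMP15 and MMP28, the inhibitors TIMP1, TIMP2, TIMP3 and RECK, and the sheddase ADAM17. Members were found by matching pig Ensembl gene IDs to these symbols. Of the 10 symbols, 9 were matched to a row among 21153 genes, and 8 of them were tested. The ID table used here pairs no pig Ensembl ID with TIMP2, which was therefore not analysed here.

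Primary arterial ECs of 8-month-old pigs were exposed for 48 h to 2 dyne/cm2 (low aneurysmal shear stress), 30 dyne/cm2 (physiological) or 80 dyne/cm2 (supra-high aneurysmal), and their RNA was sequenced. Cells of 3 donors gave 12 libraries, each donor contributing a single culture to either aneurysmal condition and 2 cultures to the physiological condition, here set 1 and set 2. All cells were unmodified and kept in DMEM with fetal calf serum and heparin on gelatin, and the GEO labels call them aortic where the methods name coronary arteries. Low shear stress was compared with set 1 and supra-high shear stress with set 2, an assignment that the sample labels themselves do not spell out. According to the design text, cultures at 80 dyne/cm2 and their controls grew in another type of flow slide, at a higher seeding density, than cultures at 2 dyne/cm2 and theirs. The methods of the study name a single slide type and seeding density for the flow experiments, and this difference between the sources was not resolved here. By the design text, slide type and shear stress cannot be told apart when 2 and 80 dyne/cm2 are set side by side directly.

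MMPs are zinc proteases that cut collagens, laminins and other components of the extracellular matrix as well as proteins of the cell surface. They are made as inactive proforms, opened by other proteases, and blocked by the tissue inhibitors of metalloproteinases (TIMPs), small secreted proteins that bind the active site, and by RECK, an inhibitor anchored in the cell membrane. In the arterial wall, the weight of these proteases against their inhibitors is one of the factors that set how fast matrix is lost, which is why both arms are followed in work on aneurysms. RNA levels say nothing about how much of a protease is active.

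Levels are CPM, that is, the share of a library's counts that fall on a gene, in counts per 1000000 after TMM scaling. Depth was 29606854 to 41058902 counts on genes per library. Counts of all 8 tested members were above 1 CPM in every library, so that none of them passed the filter on low counts through 1 condition alone. A gene was called up- or down-regulated when edgeR's quasi-likelihood test, with a term for the donor, gave a change of at least 2-fold and a p below 0.05 after Benjamini-Hochberg adjustment over all tested genes. Log2 fold changes come from that fit and are given with their standard error (SE), over 3 donors. With 3 donors in a bulk culture, fewer cells that express a gene and less RNA per cell cannot be told apart.

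The cells carried endothelial markers. All 8 matched endothelial markers were above 3 counts in every library, with a summed level of 4945 to 5848 CPM at 2 dyne/cm2, 7004 to 7940 CPM and 6544 to 7638 CPM in sets 1 and 2, and 8268 to 8568 CPM at 80 dyne/cm2. Smooth muscle markers summed to between 49.0 and 86.5 CPM and leukocyte markers to between 8.30 and 28.7 CPM, with DES at 0 counts in all 12 libraries. Most of the smooth muscle sum was SMTN, at 43.4 to 83.0 CPM, while MYH11, CNN1, ACTA2 and TAGLN stayed under 1 CPM. The 6 matched fibroblast markers summed to 22.1 to 199.7 CPM at 2 dyne/cm2, 22.5 to 90.3 CPM in set 1, 19.7 to 221 CPM in set 2 and 12.3 to 113 CPM at 80 dyne/cm2. Of the 5 fibroblast markers tested at 2 vs. 30 dyne/cm2, PDGFRA (log2 fold change 1.09) and PDGFRB (2.41) were up-regulated, against 5.06% of all tested genes. Both were low, at most 4.88 and 7.11 CPM. PDGFRB stood at 4.94, 1.04 and 7.11 CPM at 2 dyne/cm2 and at 1.23, 0.208 and 0.957 CPM in set 1. It thus passed the filter on low counts mainly through the cultures at 2 dyne/cm2, and its call beside the share of all tested genes is a description. COL1A2 (0.96, edgeR adjusted p = 0.0325) passed the adjusted p alone, and COL1A1 (1.44, adjusted p = 0.059) and LUM (-0.11, adjusted p = 0.678) did not. At 80 vs. 30 dyne/cm2, 0 of 4 tested fibroblast markers were called, against 2.2% of all tested genes. All 4 had a log2 fold change below 0, with a median of -0.957, against -0.00575 over all tested genes. The summed endothelial markers were lower at 2 dyne/cm2 than in set 1 without overlap. Of the 8, TEK was down-regulated (log2 fold change -2.95, edgeR adjusted p = 0.00479), while ROBO4 was higher (0.50, adjusted p = 0.0251), and the part of these marker levels in the changes of the members was not tested. KLF2, the transcription factor that laminar flow is known to induce in ECs, was lower at 2 dyne/cm2 than in set 1 (log2 fold change -4.35, edgeR adjusted p = 0.00906).

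Low shear stress moved both arms of the system. At 2 vs. 30 dyne/cm2, MMP14, MMP28, TIMP1 and TIMP3 were down-regulated and RECK was up-regulated, while MMP2, MMP15 and ADAM17 changed by less than 2-fold. That makes 5 of 8 tested members called, 1 up and 4 down, against 9.6% of the 11226 genes tested in this comparison (5.06% up and 4.54% down). On the adjusted p alone, 6 of 8 members passed, against 25.8% of all tested genes. Levels at 2 dyne/cm2 and in set 1 did not overlap for 6 of 8 members, against 37.9% of all tested genes. The median log2 fold change of the 8 members was -1.04, and that of all tested genes was 0.00253. The members and the lists below were chosen with earlier results of these data known. Their counts and medians beside those of all tested genes, here and below, are therefore descriptions.

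**Figure D1:**
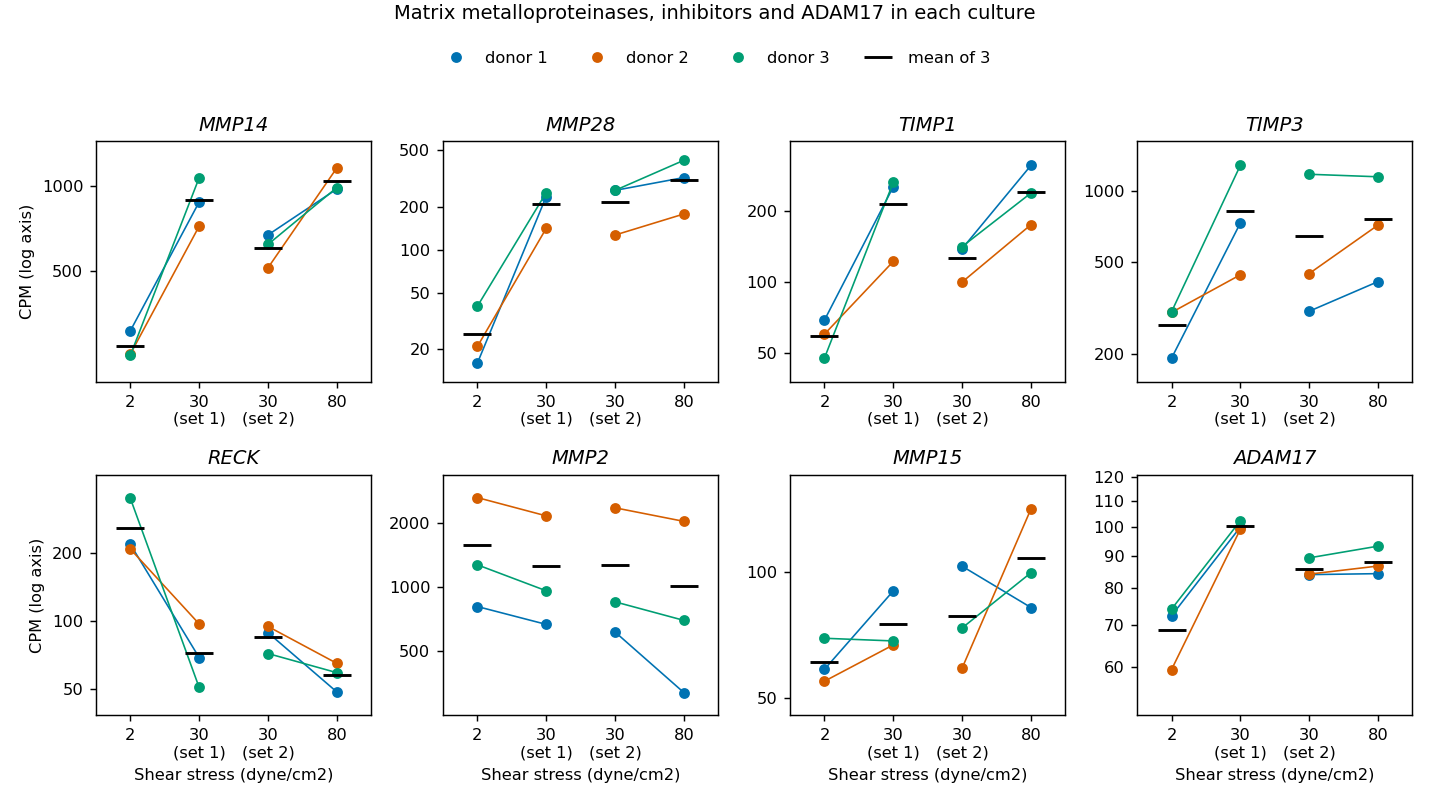
Level of each tested member in the 12 cultures, in CPM on a log axis (ranges differ between panels), against shear stress in dyne/cm2. Points are single cultures, colours are donors, lines join the cultures compared within a donor and black bars are the mean of 3. MMP14, MMP28, TIMP1, TIMP3 and ADAM17 sit lower at 2 dyne/cm2 than in set 1 in all 3 donors, and RECK sits higher.

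MMP14 (ENSSSCG00000002039, chromosome 7, 76174502 to 76185931 on Sscrofa11.1) encodes a collagenase held in the cell membrane, which together with TIMP2 activates pro-MMP2 at the cell surface. In donors 1, 2 and 3 it stood at 306, 253 and 251 CPM at 2 dyne/cm2 and at 876, 719 and 1067 CPM in set 1. All 3 cultures at low shear stress lay below all 3 controls, and the groups were far apart for their spread (270.2 ± 31.4 vs. 888 ± 174 CPM, mean ± SD, n = 3). MMP14 was 3.25-fold lower at 2 dyne/cm2 (log2 fold change -1.70, SE 0.16, edgeR adjusted p = 0.00613). Within donors the log2 change was -1.52, -1.51 and -2.09.

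MMP28 (ENSSSCG00000034440, chromosome 12, 39739074 to 39766794), also named epilysin, is a secreted MMP. It stood at 16.02, 20.9 and 40.1 CPM at 2 dyne/cm2 and at 236, 141 and 251 CPM in set 1 in donors 1, 2 and 3. The highest culture at low shear stress was thus well below the lowest control. Among the members MMP28 had the largest change, 8.46-fold lower (log2 fold change -3.08, SE 0.28, edgeR adjusted p = 0.00603). Donor 1 showed the largest step, a log2 change of -3.87, and donors 2 and 3 had -2.75 and -2.64.

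TIMP1 (ENSSSCG00000012277, chromosome X, 42103251 to 42106289) encodes a secreted inhibitor of most soluble MMPs and a poor inhibitor of MMP14. Its level was 68.9, 60.0 and 47.5 CPM at 2 dyne/cm2 and 254, 122 and 266 CPM in set 1. Donor 2 was the lowest of the controls and still lay above every culture at low shear stress. TIMP1 was 3.47-fold lower (log2 fold change -1.80, SE 0.29, edgeR adjusted p = 0.0163), with changes within donors of -1.88, -1.03 and -2.48.

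TIMP3 (ENSSSCG00000031866, chromosome 5, 12185816 to 12242599) encodes the TIMP that binds to the extracellular matrix and also inhibits ADAM17. It stood at 193, 303 and 305 CPM at 2 dyne/cm2 and at 733, 439 and 1296 CPM in set 1. The groups did not overlap, but the controls spread widely, with donor 3 highest and donor 2 lowest. TIMP3 was 2.87-fold lower (log2 fold change -1.52, SE 0.34, edgeR adjusted p = 0.033). The change within donor 2 was -0.54, against -1.93 and -2.09 in donors 1 and 3. This call was lost without donor 1 (log2 fold change -1.31, adjusted p = 0.0617), without donor 3 (-1.22, adjusted p = 0.0994), without the replicate block for the donor (-1.62, adjusted p = 0.0576) and with set 2 as the control (-1.06, adjusted p = 0.0658).

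RECK (ENSSSCG00000005338, chromosome 1, 236821243 to 236898280) encodes the membrane-anchored inhibitor and was the only member up-regulated at low shear stress. It stood at 219, 208 and 349.5 CPM at 2 dyne/cm2 and at 68.7, 96.9 and 50.7 CPM in set 1. Every culture at low shear stress was above every control. RECK was 3.61-fold higher (log2 fold change 1.85, SE 0.33, edgeR adjusted p = 0.0203), with changes of 1.67, 1.10 and 2.79 within donors. Donor 3 had the largest change of RECK and of TIMP1, TIMP3 and MMP14, and donor 2 the smallest.

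ADAM17 (ENSSSCG00000008641, chromosome 3, 126795513 to 126853995) encodes the membrane protease that releases tumour necrosis factor, ligands of the epidermal growth factor receptor and several adhesion molecules from the cell surface. Its level was 72.4, 59.5 and 74.2 CPM at 2 dyne/cm2 and 100.1, 99.3 and 102 CPM in set 1. The controls lay close together and all above the cultures at low shear stress. The log2 fold change was -0.55 (SE 0.09, edgeR adjusted p = 0.0171), past the adjusted p but below 2-fold.

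MMP2 (ENSSSCG00000002829, chromosome 6, 30059247 to 30087031), which encodes gelatinase A, differed far more between donors than between conditions. It stood at 809, 2622 and 1269 CPM at 2 dyne/cm2 and at 667, 2153 and 959 CPM in set 1. Donor 2 was highest and donor 1 lowest in each of the 4 groups, with means over 4 libraries of 2288, 944 and 603 CPM in donors 2, 3 and 1. MMP2 was higher at 2 dyne/cm2 in all 3 donors, but the log2 fold change of 0.33 (SE 0.11) had an edgeR adjusted p of 0.0886. Fibroblast markers did not rank the donors alike: over 4 libraries, COL1A2 had a mean of 2.57 CPM in donor 2 against 105 and 121 CPM in donors 1 and 3, whereas LUM had 11.95 CPM in donor 2 against 4.64 and 0.163 CPM. The part of such cells in the level of MMP2 was not tested.

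MMP15 (ENSSSCG00000002806, chromosome 6, 19890867 to 19912941) encodes another membrane-anchored MMP. It stood at 58.6, 54.9 and 69.5 CPM at 2 dyne/cm2 and at 90.1, 67.0 and 68.5 CPM in set 1. These ranges overlapped, and the log2 fold change was -0.29 (SE 0.14, edgeR adjusted p = 0.171), with changes of -0.62, -0.29 and 0.02 in donors 1, 2 and 3. MMP1 (ENSSSCG00000014985, chromosome 9, 33411738 to 33420205), the interstitial collagenase, had 0 or 1 count in each of the 12 libraries, at or under the floor of 3 counts. No fold is given for it.

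**Figure D2:**
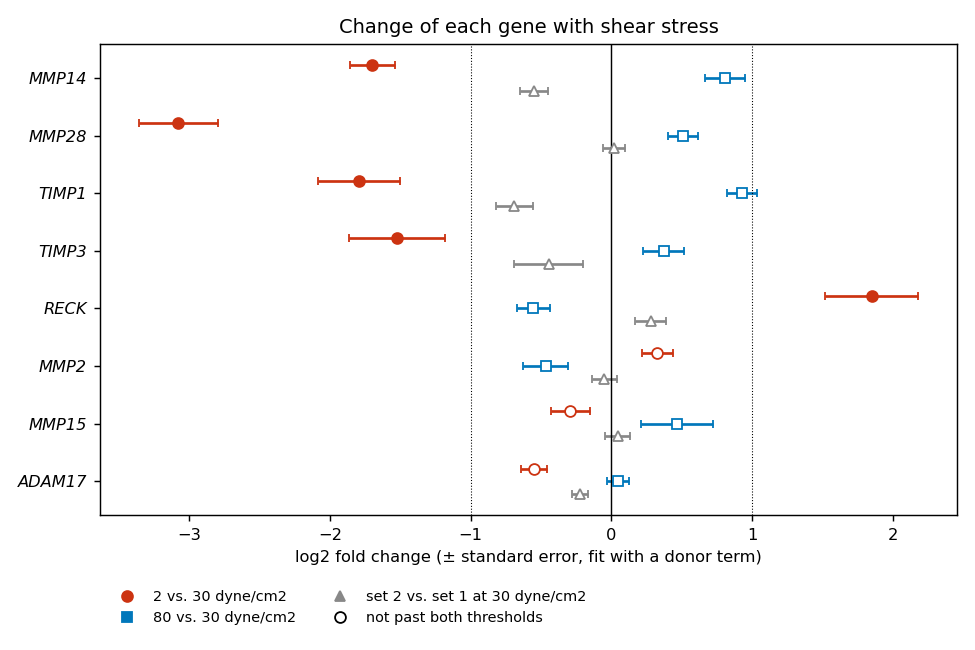
Log2 fold change of the 8 tested members (points) with its standard error (bars) from fits with a donor term, for 2 vs. 30 dyne/cm2 (circles), 80 vs. 30 dyne/cm2 (squares) and set 2 vs. set 1 at 30 dyne/cm2 (triangles). Filled symbols passed both thresholds, and dotted lines mark a 2-fold change. The filled circles are MMP14, MMP28, TIMP1 and TIMP3 to the left and RECK to the right, and no square or triangle is filled.

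Under supra-high shear stress no member reached a 2-fold change. At 80 vs. 30 dyne/cm2, 0 of 8 members were called by edgeR and 0 by DESeq2, against 2.2% of the 11187 genes tested by edgeR. An unadjusted p under 0.05 was reached by 6 of 8 members and by 26.1% of all tested genes. On the edgeR adjusted p alone 4 of 8 members passed, MMP14, TIMP1 and MMP28 with higher levels and RECK with lower levels, against 8.4% of all tested genes (4.36% higher and 4.04% lower). Levels at 80 dyne/cm2 and in set 2 did not overlap for MMP14, TIMP1 and RECK, 3 of 8 members, against 14.9% of all tested genes. The median log2 fold change was 0.419 over the members and -0.00575 over all tested genes.

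MMP14 stood at 974, 1156 and 985 CPM at 80 dyne/cm2 and at 669.8, 512 and 619.8 CPM in set 2. All 3 cultures at supra-high shear stress were above all 3 controls, and MMP14 was 1.75-fold higher (log2 fold change 0.81, SE 0.14, edgeR adjusted p = 0.0186). TIMP1 was at 314, 175 and 239 CPM against 139, 100.0 and 142 CPM. It was higher in each donor and without overlap, by 1.9-fold (log2 fold change 0.93, SE 0.11, edgeR adjusted p = 0.00487). Of the members, TIMP1 was the closest to a call in this comparison, and without donor 3 it was called (log2 fold change 1.00, adjusted p = 0.044).

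MMP28 stood at 320.0, 178 and 423 CPM at 80 dyne/cm2 and at 260.1, 127 and 260.1 CPM in set 2. It was higher within each donor although the groups overlapped, since donor 2 was low in both (log2 fold change 0.51, SE 0.10, edgeR adjusted p = 0.0289). RECK stood at 48.4, 64.8 and 58.9 CPM against 88.6, 94.4 and 71.6 CPM. All 3 cultures at supra-high shear stress lay below the controls (log2 fold change -0.55, SE 0.12, edgeR adjusted p = 0.0336).

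The other members were not past the adjusted p at 80 dyne/cm2. TIMP3 was at 410.4, 718 and 1156 CPM against 306, 444 and 1185.5 CPM, higher in donors 1 and 2 and about equal in donor 3 (log2 fold change 0.37, SE 0.15, edgeR adjusted p = 0.166). MMP2 stood at 319.6, 2029 and 697 CPM against 615, 2349 and 851 CPM. It was lower in all 3 donors, with a change of -0.94 in donor 1 and of -0.21 and -0.29 in donors 2 and 3, and the fit gave -0.47 (SE 0.16, edgeR adjusted p = 0.122). MMP15 was at 82.2, 141 and 99.5 CPM against 103, 59.0 and 73.5 CPM. Donors went both ways, -0.33 in donor 1, 1.26 in donor 2 and 0.44 in donor 3 (log2 fold change 0.47, SE 0.26, edgeR adjusted p = 0.294). ADAM17 stood at 84.4, 86.8 and 93.3 CPM against 84.1, 84.3 and 89.4 CPM, a log2 fold change of 0.05 (SE 0.08, edgeR adjusted p = 0.734).

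The sets at 30 dyne/cm2 bear on these values, because both were grown at the same shear stress. By the design text and the assignment used here they differed in slide type and seeding density. A swap of control sets therefore also changes slide type and density, which cannot be told apart from shear stress in it. Between set 2 and set 1, 0 of 8 members were called by edgeR and 0 by DESeq2, against 0.00896% of the 11163 genes tested by edgeR. At an unadjusted p under 0.05 these shares were 4 of 8 members and 19.2% of all tested genes. MMP14 was nonetheless lower in set 2 without overlap (log2 fold change -0.55, SE 0.10, edgeR adjusted p = 0.107), as was ADAM17 (-0.22, SE 0.06, adjusted p = 0.158), which makes 2 of 8 members against 10.3% of all tested genes. TIMP1 was lower in set 2 by a log2 fold change of -0.69 (SE 0.13, adjusted p = 0.11). With set 1 in place of set 2 as the control for 80 dyne/cm2, the log2 fold change was 0.25 for MMP14 (adjusted p = 0.567), 0.23 for TIMP1 (adjusted p = 0.535) and -0.28 for RECK (adjusted p = 0.521), whereas MMP28 had 0.52 (adjusted p = 0.161). At 2 dyne/cm2 the calls of MMP14, MMP28, TIMP1 and RECK were made with either set, with log2 fold changes against set 2 of -1.15, -3.10, -1.11 and 1.57.

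In order of level, MMP14 and TIMP1 were lowest at 2 dyne/cm2, followed by set 2, set 1 and 80 dyne/cm2 by group mean. This order runs across both slide types, so it cannot be read as an effect of shear stress alone. The means of TIMP1 were 58.8 ± 10.7, 127 ± 23.2, 214 ± 79.7 and 243 ± 69.2 CPM, and mean ± SD overlapped for set 1 and 80 dyne/cm2. These SDs are spreads between donors and ignore the pairing by donor. An overlap of mean ± SD therefore does not show that groups are alike. For MMP14, set 1 and 80 dyne/cm2 also overlapped in mean ± SD, at 888 ± 174 and 1039 ± 102 CPM. RECK had the opposite order by mean, with 258.8 ± 78.8 CPM at 2 dyne/cm2, 84.9 ± 11.9 CPM in set 2, 72.1 ± 23.3 CPM in set 1 and 57.4 ± 8.31 CPM at 80 dyne/cm2, and both sets overlapped in mean ± SD. The means of MMP28 were 25.7 ± 12.7 CPM at 2 dyne/cm2, 209 ± 59.5 CPM in set 1, 216 ± 77.1 CPM in set 2 and 307 ± 123 CPM at 80 dyne/cm2. Only the lowest group was clear of the others in mean ± SD. Within donors, MMP28 was nonetheless higher at 80 dyne/cm2 than in set 2 in each donor (log2 change 0.30, 0.49 and 0.70).

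The difference between the 2 responses of a member, to low and to supra-high shear stress, was tested in 1 edgeR fit over all 12 libraries. In this fit each condition keeps its own control set, and the sets were not swapped. By the design text and the assignment used here, the 2 responses were measured in different slide types and seeding densities. Shear stress therefore cannot be told apart from slide type and density in a difference between them. This difference, the log2 fold change at 80 minus that at 2 dyne/cm2, passed an adjusted p of 0.05 for 7 of 8 members, against 37.1% of the 11568 genes tested. It was above 0 for 5 members, against 17.9% of all tested genes, and below 0 for 2 members, against 19.3%. MMP28 had the largest difference, 3.52 (SE 0.34, edgeR adjusted p = 0.000131), followed by TIMP1 with 2.71 (SE 0.30, adjusted p = 0.000257) and MMP14 with 2.51 (SE 0.22, adjusted p = 8.1e-05). TIMP3 had 1.88 (SE 0.45, adjusted p = 0.0103) and ADAM17 had 0.59 (SE 0.11, adjusted p = 0.00265). The difference was below 0 for RECK, -2.44 (SE 0.36, adjusted p = 0.000967), and for MMP2, -0.78 (SE 0.25, adjusted p = 0.0331). MMP15 was not past the threshold, with 0.77 (SE 0.34, adjusted p = 0.106). The difference of MMP2 was not past it without the replicate block (adjusted p = 0.734), and nor was that of TIMP3 (adjusted p = 0.147).

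The balance of proteases to inhibitors was followed as a change of log2 ratios within donors, with no test. Gene length cancels in the change of a ratio of single genes and of a difference of mean log2 CPM, but not in ratios of summed CPM, where the weight of each gene depends on its length. No ratio to TIMP2 could be formed, and none with MMP1, which was at the floor. The mean log2 CPM of MMP2, MMP14, MMP15 and MMP28 minus that of TIMP1, TIMP3 and RECK changed by -0.70 ± 0.21 (SD, n = 3 donors) at 2 vs. 30 dyne/cm2, with -0.72, -0.91 and -0.48 in donors 1, 2 and 3. This direction depended on how members were combined. The ratio of the summed CPM of the same 4 proteases to that of the 3 inhibitors changed by 0.43 ± 0.27 and was higher in all 3 donors; against set 2 it changed by 0.22 ± 0.59, with donor 1 lower. Without RECK, a combination not planned beforehand, the difference of means changed by 0.47 ± 0.74, with both directions among donors, and by 0.03 ± 0.76 against set 2. At 80 vs. 30 dyne/cm2 the difference of means changed by 0.08 ± 0.38 and the ratio of sums by -0.21 ± 0.39, each with both directions among donors.

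Among single pairs, the log2 ratio of MMP14 to TIMP1 changed by 0.09 ± 0.50 at 2 dyne/cm2 and by -0.12 ± 0.50 at 80 dyne/cm2, less than the spread between donors. The ratio of MMP14 to TIMP3 changed by -0.19 ± 0.71 and 0.44 ± 0.30. MMP2 was not called while TIMP1 was down-regulated at 2 dyne/cm2, and the log2 ratio of MMP2 to TIMP1 changed by 2.12 ± 0.79 at 2 dyne/cm2 and by -1.40 ± 0.63 at 80 dyne/cm2, each in the same direction in 3 of 3 donors. MMP2 to TIMP3 changed by 1.84 ± 0.89 and -0.84 ± 0.56, also the same way in 3 of 3 donors. With the other set as control these ratios kept their direction in every donor, with means of 1.48 and 1.44 under low and -0.76 and -0.44 under supra-high shear stress. MMP28 to TIMP1 changed by -1.29 ± 0.99 and MMP28 to TIMP3 by -1.57 ± 0.89 at 2 dyne/cm2, lower in 3 of 3 donors.

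Ratios to RECK were lower at 2 dyne/cm2 for each of the 4 proteases in 3 of 3 donors. MMP14 to RECK changed by -3.56 ± 1.18 at 2 dyne/cm2 and by 1.36 ± 0.39 at 80 dyne/cm2, in 3 of 3 donors each. MMP28 to RECK changed by -4.94 ± 0.95 and 1.06 ± 0.10. MMP2 to RECK changed by -1.53 ± 0.79 at 2 dyne/cm2 and by 0.08 ± 0.22 at 80 dyne/cm2, there with both directions among donors. The ratio of the inhibitors TIMP1 and RECK itself changed by -3.65 ± 1.57 and 1.48 ± 0.52. With set 1 as control at 80 dyne/cm2, MMP14 to RECK changed by 0.53 ± 0.81 and TIMP1 to RECK by 0.51 ± 0.78, and both were lower in donor 3 (-0.33 and -0.37), while MMP28 to RECK changed by 0.80 ± 0.23 and was higher in 3 of 3 donors. For the sheddase and its inhibitor, ADAM17 to TIMP3, the change was 0.96 ± 1.01 at 2 dyne/cm2, with 1.46 and 1.62 in donors 1 and 3 and -0.20 in donor 2. At 80 dyne/cm2 it was -0.32 ± 0.38.

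**Figure D3:**
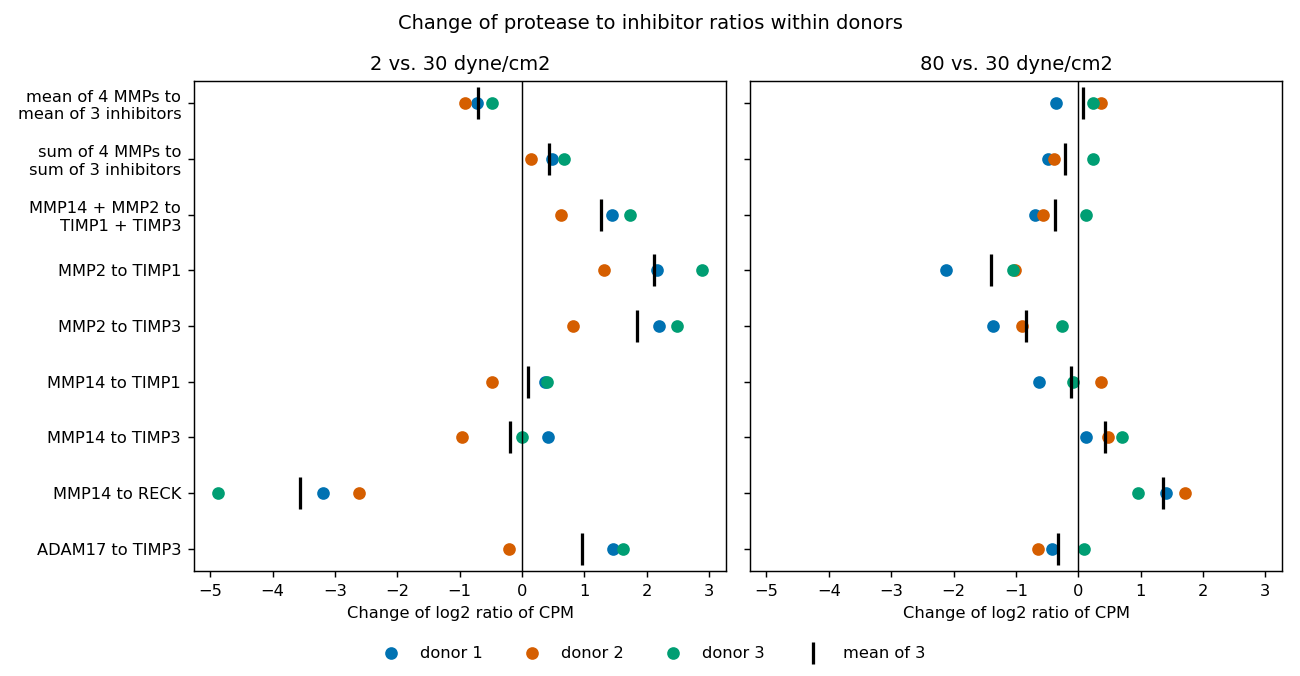
Change of protease to inhibitor ratios (log2 ratio of CPM, horizontal axis) within each donor at 2 vs. 30 dyne/cm2 (left) and 80 vs. 30 dyne/cm2 (right). Points are donors and black bars the mean of 3. At 2 dyne/cm2 the ratios of MMP2 to TIMP1 and TIMP3 lie to the right of 0 in all donors, MMP14 to RECK lies far to the left, and MMP14 to TIMP1 or TIMP3 lies on both sides of 0 or on it.

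The remaining MMPs held no called gene. Of 19 listed genes (the remaining MMPs and TIMP4), 15 were matched and 6 were tested, and 0 of these 6 were called by edgeR in either comparison (unadjusted p under 0.05 for 3 at 2 dyne/cm2 and for 1 at 80 dyne/cm2). On the adjusted p alone 2 were higher at 2 dyne/cm2, where 25.8% of all tested genes passed in either direction. At 80 dyne/cm2, 1 was lower, against 4.04% of all tested genes. MMP16, a further membrane-anchored MMP chosen here after its values were seen, was higher under low shear stress by 0.91 on the log2 scale (SE 0.09, adjusted p = 0.00681). Under supra-high shear stress its log2 fold change was -0.97 (SE 0.17, adjusted p = 0.0191). Both changes lay just short of 2-fold. MMP8 had 0 counts in every library, and MMP7, MMP12, MMP13 and MMP27 at most 2. MMP9, gelatinase B, had 0 to 4 counts.

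The ADAM family of membrane proteases, relatives of the MMPs to which ADAM17 belongs, held called genes in both comparisons. All 11 listed genes were matched and 9 were tested. At 2 vs. 30 dyne/cm2, 4 were down-regulated and 1 was up-regulated, against 4.54% and 5.06% of all tested genes. ADAM15, which carries an integrin-binding motif, had the largest change: it stood at 65.6, 80.4 and 77.05 CPM at 2 dyne/cm2 and at 738, 439 and 1126 CPM in set 1, without overlap (log2 fold change -3.27, SE 0.31, edgeR adjusted p = 0.00623). The other down-regulated genes were ADAM12 (-1.72, adjusted p = 0.0128), ADAM19 (-1.46, adjusted p = 0.0397) and ADAM8 (-1.30, adjusted p = 0.0329), and ADAM23, which lacks protease activity, was up-regulated (1.08, adjusted p = 0.0332). Without the replicate block these 4 were not past the threshold (adjusted p = 0.185, 0.0621, 0.0758 and 0.753), and against set 2 their log2 fold changes were -0.74, -0.81, -0.58 and 0.605, below 2-fold, whereas ADAM15 was called in all 12 alternatives. At 80 vs. 30 dyne/cm2, ADAM19 was the single called gene of the 9 tested, against 2.2% of all tested genes. It stood at 136, 153 and 164 CPM against 61.9, 71.97 and 91.96 CPM (log2 fold change 1.03, SE 0.09, edgeR adjusted p = 0.00311). The call of ADAM19 at 80 dyne/cm2 was lost with set 1 as control (0.38, adjusted p = 0.479) and without donor 1 (0.97) or donor 2 (0.98), where the change was below 2-fold. ADAM15 had a log2 fold change of 0.97 (adjusted p = 0.0283), just below 2-fold. Its difference between the responses and that of ADAM17 pointed the same way, and 6 of 9 tested ADAM genes passed that test with a value above 0 and 2 with a value below 0, against 17.9% and 19.3% of all tested genes.

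Of 18 listed genes whose products activate, transport or clear these proteases, 16 were matched and 14 tested. At 2 dyne/cm2, 1 of 14 was up-regulated and 1 down-regulated, against 5.06% and 4.54% of all tested genes. On the adjusted p alone 1 was higher and 5 were lower there, where 25.8% of all tested genes passed in either direction. At 2 dyne/cm2 RHBDF2, which encodes iRhom2, a carrier that brings ADAM17 to the cell surface, was up-regulated, with 23.1, 30.0 and 16.6 CPM against 8.74, 16.05 and 4.16 CPM (log2 fold change 1.42, SE 0.22, edgeR adjusted p = 0.0152). TSPAN5, a tetraspanin partner of ADAM10, was down-regulated (-1.70, SE 0.28, adjusted p = 0.017). Without the replicate block both calls were lost (adjusted p = 0.14 and 0.194). At 80 dyne/cm2, 0 of 14 were called by edgeR, with an unadjusted p under 0.05 for 5, and on the adjusted p alone 3 were higher (2.2%, 26.1% and 4.36% of all tested genes). FURIN, the convertase that cleaves the proform of MMP14, is named here after its values were seen. Its log2 fold change was -0.81 under low shear stress (adjusted p = 0.0158), and 0.47 under supra-high shear stress (adjusted p = 0.0367), or 0.23 there with set 1 as control (adjusted p = 0.492). FURIN was lower in set 2 than in set 1 without overlap (-0.24, adjusted p = 0.193).

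Of 14 proteins that ADAM17 is known to shed, 11 were matched and 10 tested. At 2 dyne/cm2, ICAM1 was down-regulated and IL6R, the receptor of interleukin 6, was up-regulated. That is 1 of 10 each way, against 4.54% of all tested genes down and 5.06% up. On the adjusted p alone 3 were lower and 1 was higher, where 25.8% of all tested genes passed in either direction. ICAM1, an adhesion molecule for leukocytes, had a log2 fold change of -1.02 (edgeR adjusted p = 0.0125), and IL6R had 1.08 (adjusted p = 0.00917). Without the replicate block the adjusted p of ICAM1 was 0.0678 and that of IL6R 0.0558, and both changes were below 2-fold against set 2. At 80 dyne/cm2, 0 of 10 were called by edgeR, with an unadjusted p under 0.05 for 7, and 4 passed the adjusted p alone with higher levels (2.2%, 26.1% and 4.36% of all tested genes). Set 2, the control there, was itself lower than set 1 for 9 of the 10, though 0 were called. The median log2 fold change between the sets was -0.353, against 0.00572 over all tested genes. The part of this difference between control sets in the higher levels at 80 dyne/cm2 was not tested. The median log2 fold change of the tested genes at 2 and 80 dyne/cm2 was 0.221 and -0.0221 for the other MMPs, -0.824 and 0.337 for the ADAM family, -0.397 and 0.128 for activation and transport, and -0.57 and 0.374 for the ADAM17 substrates.

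**Figure D4:**
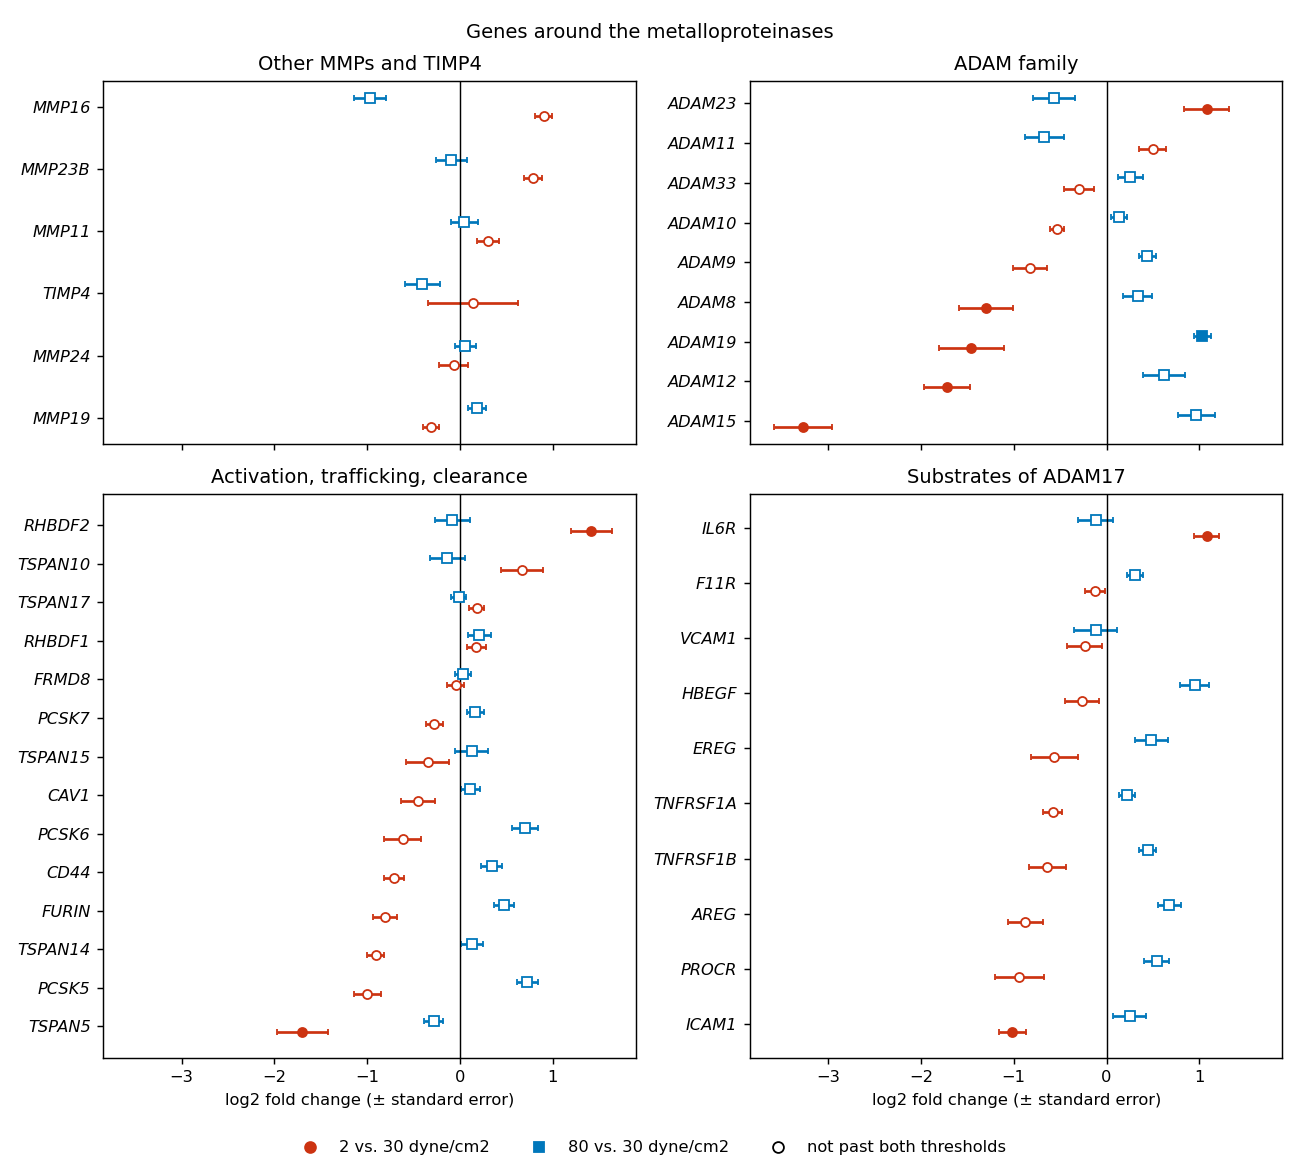
Log2 fold change (points) with its standard error (bars) of tested genes around the members, in 4 lists, at 2 vs. 30 dyne/cm2 (red circles) and 80 vs. 30 dyne/cm2 (blue squares). Filled symbols passed both thresholds, which at 80 dyne/cm2 applies to ADAM19 alone. ADAM15 (-3.27) lies farthest to the left.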

How the data were processed

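Raw read counts per gene were deposited by the authors for 12 libraries, without normalization. Per the labels and the methods, single-end TruSeq reads were mapped to Sscrofa11.1 with STAR 2.4, reads mapping to several places were dropped, and reads over exons were counted with featureCounts 1.4.6; CASAVA 1.8.2 is also named. Whether counting used strand is not given in the sources used here. Reads shared by near-identical genes would be lost by this mapping.

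Tests were run with edgeR 4.0.16 (TMM, quasi-likelihood test, Benjamini-Hochberg adjustment) under R 4.3.3. Genes entered a test when 3 or more of its 6 libraries reached 1 CPM, or 3 of 12 for the difference between the responses. This filter replaced that of the study, on RPKM, as no exon lengths were at hand. For the same reason levels were not compared between genes. Each fit held the donor (replicate number) as a block, since cultures were matched by donor in the study. In the counts, deviations from group means correlated at 0.672 to 0.876 in 18 pairs of libraries with the same number and at -0.552 to -0.189 in 36 other pairs, over 11568 genes. The SE is the log2 fold change divided by the square root of F. Log2 CPM for ratios used a prior count of 2. Symbols and positions came from gene tables on Sscrofa11.1.

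The members and the gene lists were chosen with earlier results of these data known. All members are named. From the lists around them, genes past both thresholds in either comparison were named, up to 5 a list by size of change; the remaining named genes are marked as chosen after their values were seen. An item of these lists is not reported here. For each called member, the 3 genes most like it were taken by Pearson correlation. Alternatives were RLE normalization, other filters, DESeq2 1.42.0, no block, all 12 libraries in 1 fit, another control (the other set, or both), other thresholds, other balances and each donor left out. No gene sequences were used here. The procedure was tested on simulated data. Replicates were separate donors.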

Additional observations from a re-analysis of the deposited data

How the results depend on the processing

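MMP14, MMP28, TIMP1 and RECK kept their direction and call at 2 vs. 30 dyne/cm2 in all 12 alternatives, with log2 fold changes of -1.80 to -1.15, -3.31 to -2.70, -2.18 to -1.11 and 1.396 to 2.23; TIMP3 lost its call in 4 of the 12. Causes were not tested. Without the replicate block, 4 members were called at 2 dyne/cm2 (635 of all genes against 1078 with it), 0 at 80 dyne/cm2 (0 genes against 246), 0 between the sets (0 genes against 1) and 5 in the difference between the responses (1746 genes against 4294). Without the replicate block and with DESeq2 the genes called were 66 at 80 dyne/cm2, 9 between the sets and 2560 in the difference.

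On the adjusted p alone, 2895 genes passed at 2 dyne/cm2, 940 genes and 4 members at 80 dyne/cm2, and 2 genes between the sets, and 1921 passed in the difference with a 2-fold threshold added. All 12 libraries in 1 fit gave 125 genes at 80 dyne/cm2 and 0 between the sets. Set 1 as control gave 24 genes at 80 dyne/cm2 and both sets gave 84. Between the sets, no filter gave 46 genes and DESeq2 with the replicate block 66. Leaving out 1 donor gave 721 to 1001 genes and 4 to 5 members at 2 dyne/cm2, 132 to 286 genes and 0 to 1 members at 80 dyne/cm2 (132 without donor 2 and 136 without donor 3), 0 to 62 genes between the sets (62 without donor 2), and 1949 to 3299 genes and 5 to 7 members in the difference (1949 without donor 3 and 2403 without donor 1). Without donor 1 or donor 3 the difference was not past the threshold for MMP2 (adjusted p = 0.138 and 0.173) and TIMP3 (0.063 and 0.0506).

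The balance at 2 dyne/cm2 was -0.70, and 0.43 as sums, 1.27 as MMP14 plus MMP2 to TIMP1 plus TIMP3 and 0.47 without RECK, with a range of -0.82 to -0.60 when a donor was left out. At 80 dyne/cm2 it was 0.08, and -0.21 as sums, -0.38 for the same 4 genes and -0.32 without RECK, with a range of -0.06 to 0.30. With the other set as control, an alternative chosen after seeing the data, it was -0.86 and 0.23. The balance without RECK was not planned beforehand either. Directions at 80 dyne/cm2 turned for TIMP3 (-0.09), ADAM17 (-0.18), ADAM8 (-0.39), ADAM12 (-0.38) and IL6R (0.14) with set 1 as control, and for ADAM17 (-0.066), ADAM8 (-0.077) and IL6R (0.014) with both sets. Leaving out 1 donor gave both directions for MMP23B (-0.319 to 0.171, above 0 without donor 1), RHBDF2 (-0.376 to 0.056, above 0 without donor 2 or 3), IL6R (-0.378 to 0.023, above 0 without donor 2) and ICAM1 (-0.03 to 0.455, below 0 without donor 2). Between the sets it did so for MMP2 (-0.139 to 0.008, above 0 without donor 3), MMP15 (-0.036 to 0.155, below 0 without donor 1) and MMP28 (-0.048 to 0.104, below 0 without donor 1 or 3), and MMP2 turned without the replicate block (0.017, and 0.018 with DESeq2). None of the reversed values was past the threshold. Of the other results for single genes, 672 kept their side of the threshold, 72 lost it and 3 gained it, all in the same direction. ADAM8, ADAM19 and ADAM23 at 2 dyne/cm2 were not called without donor 1 (adjusted p = 0.0793, 0.0653 and 0.0637), nor ADAM8 and ADAM19 without donor 3 (0.0849 and 0.0953), nor ICAM1 and IL6R without donor 2 (-0.90 and 1.00, below 2-fold), nor ICAM1 without donor 3 (-0.95). MMP1, at 0 or 1 count, allows no statement on a change.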

Other observations

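For each called member, the 3 genes most like it across the 12 libraries were listed by the correlation of log2 CPM after removal of each donor's mean, among 10138 genes with a symbol. The libraries share donors and conditions, so that these values are descriptions. For MMP14 they were PDLIM7 (Pearson r = 0.992), SH3BGRL3 (0.991) and CAMK1 (0.99). For MMP28 they were KLF2 (0.993), ADCY4 (0.988) and CCM2L (0.987). TIMP1 was nearest to CLMP (0.99), ATP5MC1 (0.989) and RBM27 (0.988), and TIMP3 to ARF6 (0.979), EMG1 (0.977) and WDR74 (0.977). RECK was nearest to DCLK1 (0.994), RNF41 (0.991) and PGM2L1 (0.991). Among the members themselves, r was 0.963 between MMP14 and TIMP1, -0.95 between MMP14 and RECK and -0.973 between TIMP1 and RECK.

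Donors also differed in other genes of the MMP and ADAM families. ADAM33, chosen after its values were seen, had 10.2 to 19.3 CPM in the 4 libraries of donor 2 and 62.4 to 185.9 CPM in those of donors 1 and 3. ADAM23 had 8.85 to 15.4 CPM in donor 2, 1.24 to 4.83 CPM in donor 3 and 0.0982 to 0.334 CPM in donor 1. MMP23B, also chosen after its values were seen, had means of 76.0, 56.8 and 29.3 CPM in donors 1, 2 and 3. With 1 culture series per donor, these values carry no test.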
